A study of Mus musculus with 6 samples.

Results

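Lipid-associated macrophages are macrophages of obese fat that take up lipid released by dying adipocytes. The account here covers 10 genes used as markers of these cells, Trem2, Gpnmb, Spp1, Itgax, Mmp12, Cd9, Cd63, Cd68, Lgals3 and Fabp7, which were listed by symbol and not by their values. Of these 10 genes 9 were measured, out of 15176 genes in all, and Fabp7, a fatty acid binding protein, was not analysed here. In 1 of the 2 Steap4AKO libraries 7 of the 9 were more than 2-fold above every Steap4f/f library, as were 7.8% of all 15006 genes tested, and no gene of the 9 passed the test between genotypes.

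In obese fat, macrophages gather around dead adipocytes in crown-like structures and break down the lipid in their lysosomes. TREM2 is a lipid-sensing receptor on their surface that signals through the adaptor TYROBP, and it is needed for the lipid-handling programme of these cells. The programme includes lysosomal and membrane proteins (GPNMB, CD68, CD63, CD9), the integrin CD11c, and secreted proteins that act on matrix and on other cells (osteopontin, MMP12, galectin-3). Not all of these genes are restricted to macrophages: Cd9, Cd63, Lgals3 and Spp1 are also known from epithelial and stromal cells, and Itgax from dendritic cells.

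The tissue was iWAT, the inguinal white fat under the skin, from mice fed a high-fat diet (HFD), and its RNA was sequenced. The 4 Steap4f/f libraries (replicates 1, 2, 5 and 6) came from mice carrying a floxed Steap4 gene, and the 2 Steap4AKO libraries (replicates 2 and 3) from mice lacking Steap4 in adipocytes. Steap4 encodes a metalloreductase, and the study asked what its loss in adipocytes does to mitochondria of this tissue. The promoter driving Cre, the age of the mice and the length of the diet are not given in the sources used here, and whether each library is a separate mouse is not stated. The p-values therefore measure the spread between these libraries, which may be technical.

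Steap4 itself had normalized counts of 17017.9, 9417.2, 8310.0 and 8851.2 in the Steap4f/f libraries, against 8312.6 and 8013.6 in Steap4AKO, a log2 difference of -0.35 (SE 0.29, limma adjusted p = 0.544), so that the level of this transcript did not separate the labels. Estimated depth ranged from 15900000 to 23200000 reads and was highest in Steap4AKO replicate 2, where the value of 1 read was estimated as 0.71: 53.8% of low values there lay within 0.1 of a whole number of such reads, and 33.8% at double that value. That library stood apart: 963 of the 15006 genes tested were more than 2-fold above all 5 other libraries, against 19 to 144 in each of the others. Adipocyte markers were present in all libraries (Adipoq at least 21862.4), but the subcutaneous depot genes Tbx15, Shox2 and En1 stood at 1.4, 16.8 and 4.3 in Steap4AKO replicate 2, against at least 316.1, 293.0 and 33.9 elsewhere. The same library held the epithelial genes Epcam and Krt8 at 412.0 and 760.6, against at most 2.4 and 11.6 elsewhere, and the mesothelial gene Upk3b at 781.0, against 0 to 167.1. Of the 6 listed depot genes, 1 went the other way, more than 2-fold above every Steap4f/f library there, as were 7.8% of all genes tested. Tbx15, Shox2 and En1 thus went against the tissue label, and the differences of the members are given with and without this library.

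Among the receptors, Trem2 (ENSMUSG00000023992, chromosome 17, 48346401 to 48354147 on the plus strand of GRCm38) had normalized counts of 65.6, 116.0, 192.9 and 118.1 in the Steap4f/f libraries and of 1590.9 and 91.4 in Steap4AKO replicates 2 and 3. Replicate 2 was 12.9-fold above the Steap4f/f mean, while replicate 3 lay within the Steap4f/f range. Trem2 did not pass, with a log2 difference of 1.73 (SE 0.98, limma adjusted p = 0.39). In bulk tissue more cells of a type and more RNA per cell cannot be told apart.

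Itgax (chromosome 7, 128129547 to 128150657), which encodes CD11c, the integrin alpha chain of dendritic cells and of inflammatory fat macrophages, had 72.4, 92.5, 148.2 and 61.1 in the Steap4f/f libraries, against 1677.1 and 222.5 in Steap4AKO. Both Steap4AKO libraries were above every Steap4f/f library, replicate 2 by 11.3-fold over the highest of them, and replicate 3 was 2.38-fold above their mean. The log2 difference was 2.78 (SE 0.73, limma adjusted p = 0.13).

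Of the secreted proteins, Mmp12 had the largest difference. It encodes macrophage elastase (chromosome 9, 7344381 to 7369499) and had 47.7, 168.2, 209.8 and 207.2 in the Steap4f/f libraries, against 4360.6 and 355.3 in Steap4AKO. Both Steap4AKO libraries were again above every Steap4f/f library, replicate 2 by 20.8-fold and replicate 3 by 1.69-fold over the highest. The log2 difference was 3.18 (SE 0.97, limma adjusted p = 0.173), the largest of the 9 genes.

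Lgals3 (chromosome 14, 47367751 to 47386160), galectin-3, a secreted lectin that binds damaged lysosomes and the cell surface, had 2131.5, 1935.0, 2741.9 and 2064.7 in the Steap4f/f libraries, against 8266.6 and 1985.7 in Steap4AKO. Replicate 2 was 3.73-fold above the Steap4f/f mean and replicate 3 lay inside the Steap4f/f range (log2 difference 0.88, SE 0.48, limma adjusted p = 0.371). Spp1 (chromosome 5, 104435118 to 104441050), osteopontin, had 134.7, 143.6, 121.5 and 115.0 in the Steap4f/f libraries, against 311.5 and 64.1 in Steap4AKO. Its Steap4AKO libraries lay on opposite sides of all Steap4f/f libraries, 2.42-fold above their mean in replicate 2 and 2.01-fold below it in replicate 3 (log2 difference 0.14, SE 0.55, limma adjusted p = 0.91).

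Among lysosomal and membrane proteins, Gpnmb (chromosome 6, 49036546 to 49070929), a glycoprotein of lysosomes induced when they are loaded with lipid, had 596.9, 981.8, 989.2 and 608.2 in the Steap4f/f libraries, against 6828.9 and 720.0 in Steap4AKO. Replicate 2 was 8.60-fold above the Steap4f/f mean and replicate 3 lay within the range (log2 difference 1.52, SE 0.75, limma adjusted p = 0.328). Cd68 (chromosome 11, 69664213 to 69666153), a lysosomal scavenger glycoprotein of macrophages, had 469.6, 361.6, 524.4 and 663.6 in the Steap4f/f libraries, against 2653.0 and 453.5 in Steap4AKO. It showed the same arrangement, with replicate 2 5.26-fold above the Steap4f/f mean (log2 difference 1.15, SE 0.60, limma adjusted p = 0.355).

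Of the tetraspanins, Cd9 (chromosome 6, 125460266 to 125494791), a tetraspanin of the plasma membrane and of vesicles, had 1023.3, 1033.8, 792.2 and 897.3 in the Steap4f/f libraries, against 1602.4 and 959.4 in Steap4AKO (log2 difference 0.41, SE 0.22, limma adjusted p = 0.371). Only replicate 2 was outside the Steap4f/f range, 1.55-fold above its top. Cd63 (chromosome 10, 128900989 to 128912822), the tetraspanin of late endosomes and lysosomes, had 3553.7, 2860.2, 2397.3 and 3041.7 in the Steap4f/f libraries, against 3221.4 and 2326.4 in Steap4AKO. Its replicate 2 lay within the Steap4f/f range and its replicate 3 just below it, and the log2 difference was -0.10 (SE 0.20, limma adjusted p = 0.815), or 0.08 when all libraries were scaled to an equal total.

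**Figure D1:**
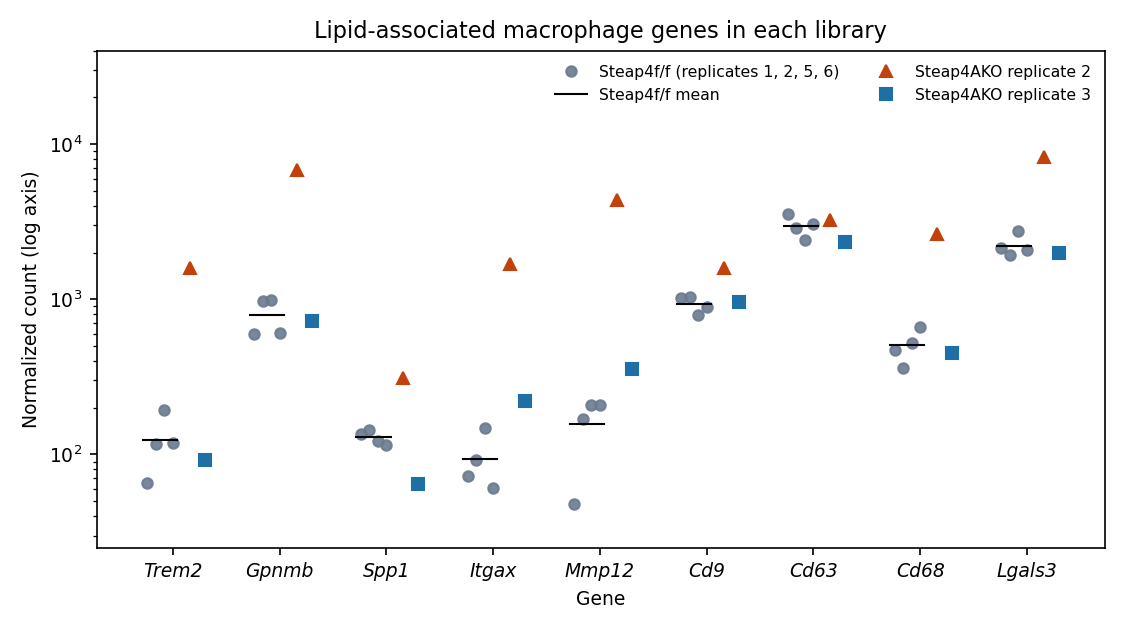
Normalized counts (log axis) of the 9 measured genes in each library; circles are the 4 Steap4f/f libraries with their mean as a line, the triangle is Steap4AKO replicate 2 and the square replicate 3. Replicate 2 is highest of all 6 libraries for 8 genes, Cd63 being the exception, and replicate 3 is above all circles for Itgax and Mmp12.

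At the adjusted p threshold of 0.05, limma called 0 of the 9 genes, where it called 0.473% of the 15006 genes tested, and 2 of 9 (Itgax and Mmp12) had an unadjusted p under 0.05, against 18.1% of all genes. All 9 genes passed the filter on low values. Both Steap4AKO libraries exceeded every Steap4f/f library for the same 2 of 9 genes, against 14.1% of all genes, and both were below every Steap4f/f library for 0 of 9, against 14.4%. The median log2 difference of the 9 genes was 1.15, and it was 0.02 over all genes tested.

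The Steap4AKO libraries differed from each other. Steap4AKO replicate 2 was more than 2-fold above every Steap4f/f library for 7 of 9 genes (all but Cd9 and Cd63), as for 7.8% of all genes tested. In Steap4AKO replicate 3, 2 of 9 genes were above every Steap4f/f library, against 24.4% of all genes, and 2 of 9, Cd63 and Spp1, were below every one of them, against 23.4%, so that its shares were near those of all genes. The median log2 difference from the Steap4f/f mean was 2.43 in replicate 2 and -0.12 in replicate 3, against 0.02 and 0.01 over all genes. Mmp12, Itgax, Trem2 and Gpnmb had a larger difference in replicate 2 than 98.9, 98.5, 98.2 and 97.5% of all genes. In replicate 3 Mmp12 and Itgax stood above 97.8 and 97.5% of all genes, while Trem2 and Gpnmb stood above 22.5 and 39.5%.

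**Figure D2:**
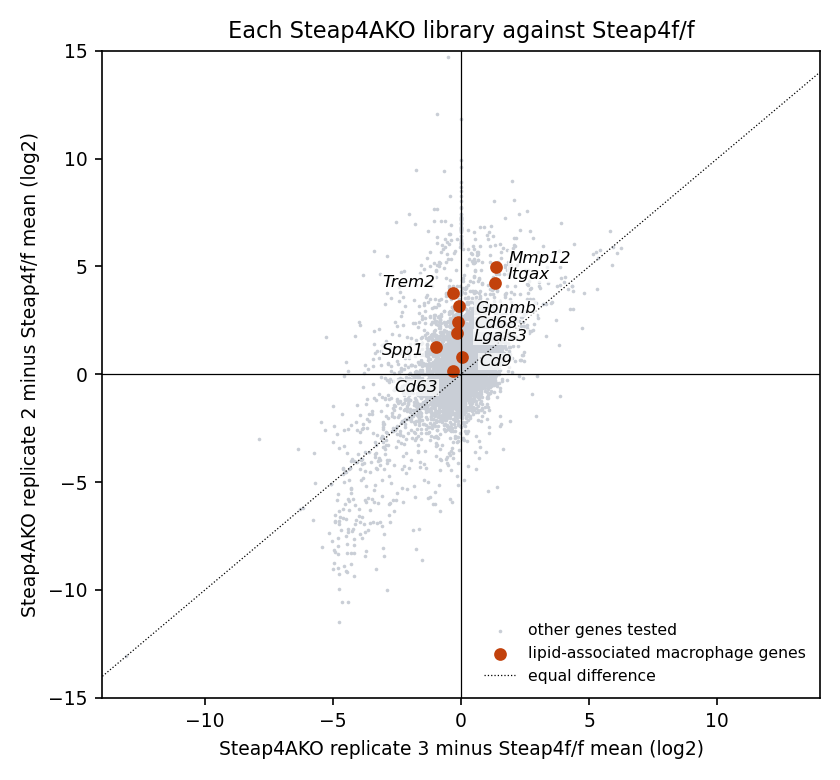
Log2 difference from the Steap4f/f mean in Steap4AKO replicate 3 (horizontal) and replicate 2 (vertical) for all genes tested (grey) and the 9 lipid-associated macrophage genes (red), with equal differences on the dotted line. All 9 lie above the dotted line; both differences are well above 0 only for Mmp12 (4.98 and 1.37 in replicates 2 and 3) and Itgax (4.23 and 1.32).

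Without Steap4AKO replicate 2 no member passed (adjusted p 0.448 to 0.969 in limma, with the lone Steap4AKO library assumed to vary like the Steap4f/f libraries). In that fit Trem2, Gpnmb, Cd68 and Lgals3 had log2 differences of -0.33, -0.10, -0.12 and -0.15, the opposite sign to the fit of all 6 libraries, and Spp1 had -0.99. Itgax and Mmp12 kept positive log2 differences of 1.32 (SE 0.52) and 1.37 (SE 0.79), with adjusted p-values of 0.517 and 0.663. Without Steap4AKO replicate 3, 6 of 9 genes passed as higher, where 3.03% of 15003 genes did: Lgals3 (adjusted p = 0.0207), Gpnmb (0.022), Itgax (0.0244), Cd68 (0.0274), Trem2 (0.0342) and Mmp12 (0.0441). That fit sets 1 library against 4 and does not compare genotypes.

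**Figure D3:**
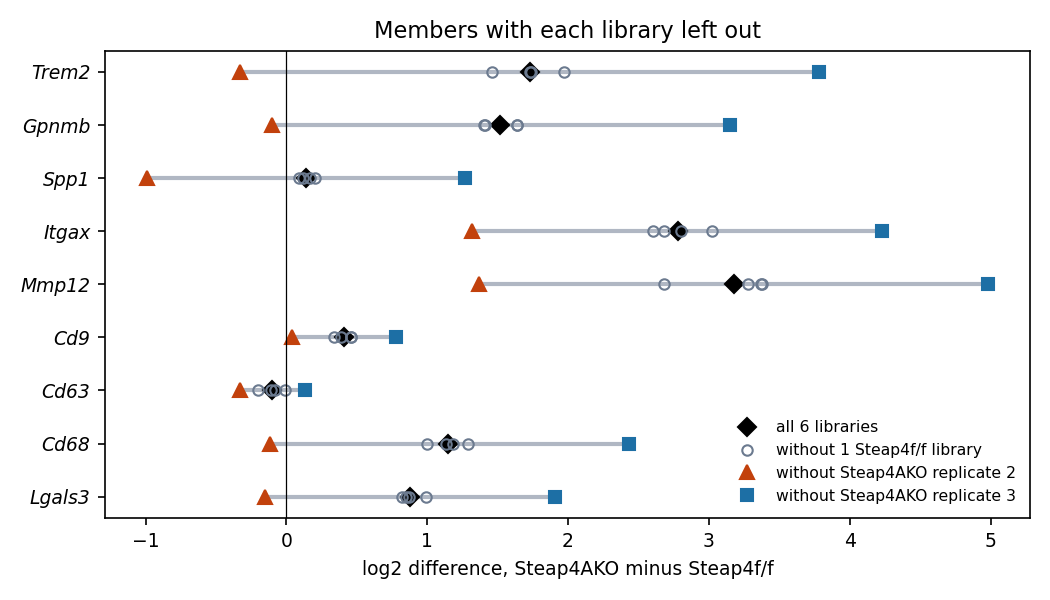
Log2 difference between Steap4AKO and Steap4f/f for each gene with all 6 libraries (diamond) and with each library left out; grey bars span the leave-one-out values. Leaving out 1 Steap4f/f library (open circles) moved the values little, while the values without Steap4AKO replicate 2 (triangles) are at or below 0.04 for 7 genes and 1.32 and 1.37 for Itgax and Mmp12.

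The promoters of the genes that were highest in Steap4AKO replicate 2 are shown for the letters they share. RefSeq promoter windows (GRCm38.p6, 250 bases before to 50 after a start site) matched all 10 listed genes, with 12 windows. The AP-1 pattern TGANTCA lay in 5 of these 12 windows, those of Mmp12, Itgax, Trem2, Gpnmb and Cd68, and in 7.81% of the 32851 windows of all genes. For the other patterns below, the members are counted as genes and the shares are of windows. These are the 5 genes with the largest log2 difference in that library, and the pattern was picked for print after its matches were seen, as 1 of 11 that were searched. The stretches upstream of the start sites are given 5′ to 3′ up to the base before the start, with each TGANTCA match in capitals:

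Trem2 (chr17:48346251-48346400, plus strand): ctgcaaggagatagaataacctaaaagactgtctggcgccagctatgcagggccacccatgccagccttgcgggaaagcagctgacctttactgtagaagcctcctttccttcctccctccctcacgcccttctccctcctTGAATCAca
Itgax (chr7:128129400-128129549, plus strand): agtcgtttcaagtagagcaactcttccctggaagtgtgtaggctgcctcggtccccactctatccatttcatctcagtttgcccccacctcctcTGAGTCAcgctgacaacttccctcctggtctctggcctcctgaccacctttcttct
Mmp12 (chr9:7347224-7347373, plus strand): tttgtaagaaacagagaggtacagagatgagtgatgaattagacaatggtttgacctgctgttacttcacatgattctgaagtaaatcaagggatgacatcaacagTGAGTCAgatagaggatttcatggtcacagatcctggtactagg
Cd68 (chr11:69666171-69666339, minus strand): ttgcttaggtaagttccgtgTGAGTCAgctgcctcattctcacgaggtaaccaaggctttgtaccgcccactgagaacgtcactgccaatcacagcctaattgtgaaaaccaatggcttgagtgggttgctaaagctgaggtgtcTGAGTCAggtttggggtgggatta

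The match began 9 bases before the start in Trem2, 56 in Itgax, 44 in the downstream window of Mmp12, and 149 and 24 in Cd68. In Gpnmb it began 8 bases past the start and is not printed. TGANTCA reads the same on both strands, and it shared 2 bases with an E-box (CANNTG) in Gpnmb and at the distal match of Cd68. Of the other patterns, searched on both strands, the PU.1 pattern GAGGAAG was in Trem2, Mmp12, Spp1 and Cd63 (13.6% of all windows), and the ETS core GGAAGT, which can overlap it, in 6 genes (23.8%). The C/EBP pattern TTGCNNAA was in Trem2, Mmp12, Spp1 and Cd68 (10.8%). The lysosomal MiT/TFE patterns TCACGTG and TCATGTG were in 0 genes and in Mmp12 alone (3.77% of all windows each). CANNTG was in 9 genes (72.3%), the TATA box TATAAA in 2 (13.6%), the GC box GGGCGG in 3 (35.7%), an NF-kB pattern in 3 (19.2%) and a nuclear receptor direct repeat in 0 (0.0396%). A match describes letters and is not a measured binding site.

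Per kilobase of exon, Lgals3 was the most abundant of the 9 genes in Steap4f/f. Its level was 1194 ± 193 normalized counts per kb (SD, n = 4), followed by Cd63 at 805 ± 130 and Cd9 at 458 ± 56.0. Cd68 had 402 ± 99.9, Gpnmb 122 ± 34.0 and Spp1 78.1 ± 7.79, and the lowest were Trem2 with 24.9 ± 10.6, Mmp12 with 21.9 ± 10.5 and Itgax with 19.5 ± 8.06. Neighbours in this order overlapped across the 4 libraries for Cd9 and Cd68 and among the 3 lowest genes, and the other neighbours did not. With the longest transcript as the length, 7 of 9 ranks were the same, and Trem2 and Mmp12 changed places. In Steap4AKO replicate 2 the order was Lgals3 (4449 per kb), Cd68 (2111), Gpnmb (1048), Cd63 (875), Cd9 (784), Mmp12 (603), Itgax (349), Trem2 (322) and Spp1 (189).

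The Steap4f/f libraries differed among themselves most for the genes with the lowest levels per kilobase in them. Their highest and lowest libraries were 4.40-fold apart for Mmp12, 2.94-fold for Trem2 and 2.43-fold for Itgax, but 1.25-fold for Spp1. Steap4f/f replicate 5 was the highest of the 4 for 5 of 9 genes, and replicate 1 the lowest for Trem2, Gpnmb and Mmp12.

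General macrophage genes were also high in Steap4AKO replicate 2 as a sum, but not each of them. Of the 12, 5 were more than 2-fold above every Steap4f/f library there, against 7.8% of all genes. Cd14 at 308.5 (154.4 to 634.5 in Steap4f/f) and Aif1 at 77.3 (28.8 to 79.0) lay within the Steap4f/f range. The 12 general macrophage genes summed to 9431.8 to 11457.3 in Steap4f/f, 28287.4 in Steap4AKO replicate 2 and 9096.3 in replicate 3, and none was at 0. Adgre1, the macrophage marker F4/80, had 159.6, 229.4, 374.6 and 231.5 in the Steap4f/f libraries, against 1750.1 and 291.8 in Steap4AKO, and Csf1r, the receptor of the macrophage growth factor CSF1, was 3.36-fold above the Steap4f/f mean in replicate 2. The resident macrophage genes summed to 1.61-fold the Steap4f/f mean there and Mrc1, the mannose receptor, stood at 1.72-fold. Of these 8 genes 0 were more than 2-fold above every Steap4f/f library there, against 7.8% of all genes. Over both Steap4AKO libraries 7 had higher mean log2 values and 1 lower. In replicate 2 Cd163 at 662.8 (426.1 to 734.8 in Steap4f/f) and Cbr2 at 535.6 (411.5 to 921.1) lay within the Steap4f/f range. The median log2 differences in replicate 2 were 1.36 for the general and 0.71 for the resident list, against 2.43 for the 9 members. Replicate 3 had medians of -0.20 and -0.03 for these lists.

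The mean log2 level of the 12 general macrophage genes, subtracted in each library, was 1.35 above its Steap4f/f mean in Steap4AKO replicate 2. These 12 genes moved unequally there, from 0.40 for Cd14 to 2.88 for Adgre1. Before subtraction Adgre1 thus moved more than Cd68 at 2.43 and Lgals3 at 1.91. After it 6 of 9 members stood above all Steap4f/f libraries in replicate 2, against 5.26% of all genes. These differences from the Steap4f/f mean were 3.64 for Mmp12, 2.88 for Itgax, 2.43 for Trem2, 1.80 for Gpnmb, 1.08 for Cd68 and 0.56 for Lgals3. Spp1 was at -0.07, inside the Steap4f/f range, and Cd9 and Cd63 were below every Steap4f/f library at -0.57 and -1.21, as were 82% of all genes. In Steap4AKO replicate 3 the same subtraction left Mmp12 at 1.58 and Itgax at 1.54, both above all Steap4f/f libraries, and Cd9 at 0.26, also above them, as for 35.7% of all genes. Trem2, Gpnmb, Cd68 and Lgals3 were at -0.11, 0.12, 0.09 and 0.07 there, within the Steap4f/f range, and Spp1 at -0.78 was below it, against 8.54% of all genes. The median over the 9 genes was 1.08 in replicate 2 and 0.09 in replicate 3. In the limma fit with that level as a covariate, the log2 difference between genotypes was 0.28 for Trem2 (adjusted p = 0.841), 0.16 for Lgals3, -0.59 for Spp1, 1.69 for Itgax (adjusted p = 0.0968) and 1.94 for Mmp12 (adjusted p = 0.371), with a median over the members of 0.28.

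**Figure D4:**
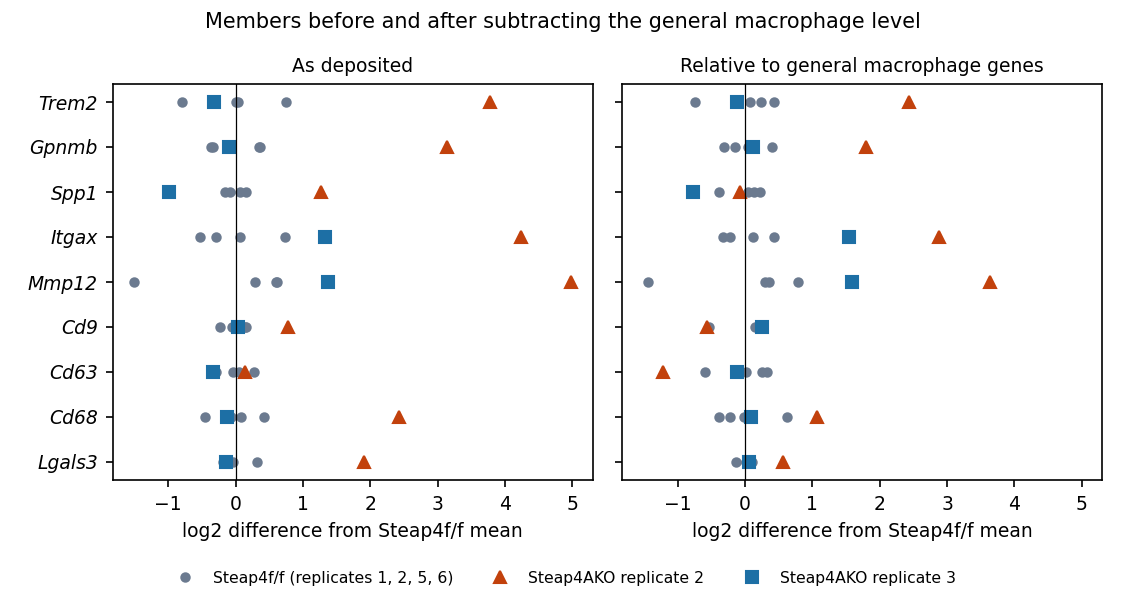
Log2 difference from the Steap4f/f mean for each gene and library, as deposited (left) and after subtracting the mean log2 level of 12 general macrophage genes in each library (right); symbols as in the legend. In Steap4AKO replicate 2 Trem2 goes from 3.78 to 2.43 and Lgals3 from 1.91 to 0.56, and in replicate 3 Itgax and Mmp12 are to the right of all Steap4f/f points in both panels.

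Markers of several other cell types were high in Steap4AKO replicate 2 as well. The 7 epithelial genes summed to 57.3 to 155.6 in Steap4f/f, 2656.8 in replicate 2 and 47.2 in replicate 3, with Epcam at 0 in 3 Steap4f/f libraries and in replicate 3. The 6 measured mesothelial genes summed to 82.0 to 491.9, 1946.7 and 53.4, with Msln, Upk3b and Wt1 at 0 in replicate 3. Dendritic cell genes summed to 710.3 to 793.8 in Steap4f/f, 901.1 in replicate 2 and 755.8 in replicate 3. Most of that sum was Zbtb46, which had 477.7 to 640.4 in Steap4f/f. The first 3 of these genes differed: in replicate 2 Flt3 was above every Steap4f/f library at 51.2, Zbtb46 below every one at 467.3, and Xcr1 within their range at 13.5. Of the 7 genes 3 were more than 2-fold above every Steap4f/f library in replicate 2, against 7.8% of all genes. Their median log2 difference there was 1.04. Monocyte genes were 2.39-fold and B cell genes 6.65-fold above the Steap4f/f mean in replicate 2, as sums. Fn1 held 9947.6 of the monocyte sum of 12468.4 there. Of the 7 monocyte genes 3 were more than 2-fold above every Steap4f/f library in replicate 2, against 7.8% of all genes. Ccr2, the chemokine receptor of recruited monocytes, had 1314.9 against 291.7 to 443.3 in Steap4f/f. Ly6c2 at 76.6 (20.3 to 84.2 in Steap4f/f) and Vcan at 512.2 (279.0 to 573.1) lay within the Steap4f/f range. Schwann cell genes and skeletal muscle genes were 10.7-fold and 190-fold below the Steap4f/f mean in replicate 2, and muscle genes were 27.5-fold below it in replicate 3. The part of these cell types and of the fat depot in the members' values was not tested.

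**Figure D5:**
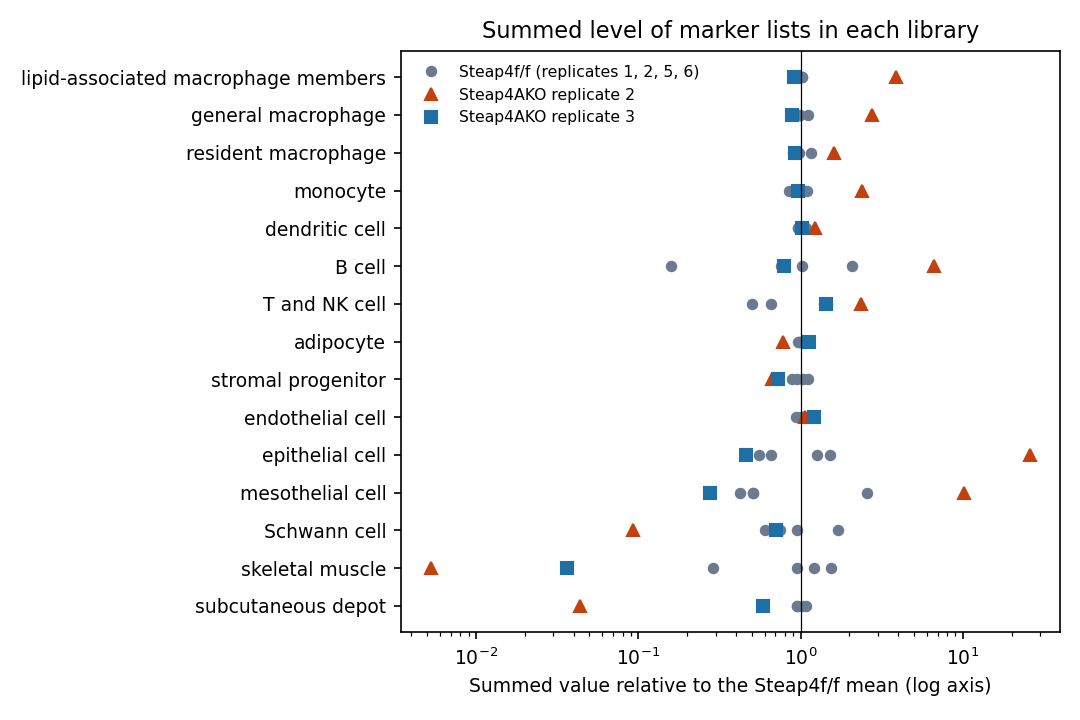
Summed normalized value of each marker list relative to its Steap4f/f mean (log axis) in the 6 libraries. In Steap4AKO replicate 2 the lipid-associated macrophage genes are at 3.85 and general macrophage genes at 2.75, beside epithelial genes at 25.9 and subcutaneous depot genes at 0.0437, while replicate 3 has 0.906 and 0.885 for the first 2.

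The counts of the pathway lists stand against those of all genes tested, of which 7826 of 15006 had higher mean log2 values in Steap4AKO, and for 18.1% the unadjusted p was under 0.05. In the pathway around TREM2, of 11 measured signalling partners, 9 had higher and 2 lower mean log2 values in Steap4AKO, 0 passed the adjusted threshold in limma and 1 had an unadjusted p under 0.05 (median log2 difference 0.63). The median was 1.72 in replicate 2 and -0.14 in replicate 3. Plcg2, the phospholipase downstream of SYK, had 105.0 to 142.9 in the Steap4f/f libraries, against 451.1 and 123.5 in Steap4AKO (adjusted p = 0.304). Clu, an apolipoprotein that binds TREM2, had 730.9 to 1322.7 against 3039.0 and 1027.8, and Pik3cg, a leukocyte PI3-kinase subunit, 35.3 to 82.3 against 262.4 and 59.1. Tyrobp and Apoe, named here after their values were seen, went opposite ways in replicate 2, and in replicate 3 both lay within the Steap4f/f range. Tyrobp had 179.9 to 323.7 in the Steap4f/f libraries, against 891.0 and 206.2 in Steap4AKO. Apoe, an apolipoprotein that adipocytes also make, had 51146.8 to 96201.0 against 43812.4 and 56202.7.

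Among genes of lipid breakdown in lysosomes, Lipa, the lysosomal acid lipase, had 1006.2 to 1266.5 in the Steap4f/f libraries, against 4172.1 and 1439.8 in Steap4AKO, both above every Steap4f/f library (SE of the log2 difference 0.36, limma adjusted p = 0.185, or 0.643 without replicate 2). Nceh1, a cholesteryl ester hydrolase, had 113.0 to 210.8 against 1005.4 and 203.7, and Msr1, a scavenger receptor for modified lipoproteins, 50.8 to 78.4 against 331.8 and 57.5. Of the 14 genes of lipid uptake and storage, 11 had higher mean log2 values, 0 passed, 2 had an unadjusted p under 0.05 and the median was 0.22 (0.36 in replicate 2 and -0.05 in replicate 3). Of the 16 lysosomal genes, 14 had higher values, 0 passed, 3 had an unadjusted p under 0.05 and the median was 0.31 (0.73 and -0.03), with 5 of 16 below every Steap4f/f library in replicate 3, as for 23.4% of all genes. Atp6v0d2, a proton pump subunit of macrophages and osteoclasts, had 38.0 to 70.9 against 1155.2 and 54.5, and Ctss, cathepsin S, 501.1 to 937.3 against 4190.0 and 761.0. Acp5, the tartrate-resistant phosphatase, was lower in both Steap4AKO libraries, with 7929.3 to 11197.0 against 3922.7 and 6771.1 (adjusted p = 0.161).

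Partners and regulators of the members were as follows. Itgb2, the beta chain that pairs with CD11c, had 267.3 to 522.3 in the Steap4f/f libraries, against 2838.5 and 562.9 in Steap4AKO, above every Steap4f/f library in both, as Itgax was (log2 difference 1.83, SE 0.57, limma adjusted p = 0.177, or 0.67 and 0.651 without replicate 2). Cd44, an osteopontin receptor, had 299.6 to 624.8 against 1909.5 and 444.4, and Itgam, CD11b, 242.4 to 345.1 against 1582.0 and 255.7. Of these 9 partners 8 had higher values, 0 passed, 5 had an unadjusted p under 0.05 and the median was 0.59 (1.21 in replicate 2 and 0.24 in replicate 3). Among 11 regulators, 6 had higher values, 0 passed, also at an unadjusted p under 0.05, and the median was 0.16 (-0.03 and 0.05). Spi1, which encodes the macrophage factor PU.1, had 220.0 to 297.2 against 874.0 and 260.9. Bhlhe40 and Bhlhe41, repressors of the clock that also act in macrophages, were high in the other library, with 971.1 to 1147.3 against 861.6 and 3229.7, and 282.6 to 937.4 against 530.5 and 1599.2.

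Relatives of the members were mixed. Of 16 measured paralogs, 8 had higher and 8 lower values, 0 passed, 4 had an unadjusted p under 0.05 and the median was 0.00 (0.01 and -0.08). Itgal, the CD11a integrin chain of leukocytes, had 43.8 to 141.6 against 262.3 and 109.4. Mmp3, stromelysin, had 589.9 to 1379.2 against 60.0 and 430.6, lower in both Steap4AKO libraries, opposite to Mmp12. Fabp3, the fatty acid binding protein of muscle, had 178.4 to 2217.4 against 36.2 and 32.4.

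Outside the members, the genes whose profile over the 6 libraries was most like that of Trem2 were Vash2, Myh11, Fads2, Atp6v0d2, Slc37a2, Il7r, Adgre1, Cd52, Slc15a3 and Nckap1l. Likeness was the root mean square difference between log2 values, each gene centred on its own mean, and it was 0.24 to 0.50 for these 10, against a median of 1.54 over 12328 genes with a mean of at least 50. Among the members Gpnmb was nearest to Trem2 at 0.41, nearer than 9 of these 10, followed by Itgax at 0.68 and Cd68 at 0.70, and Cd63 was farthest at 1.49. Cd52, a leukocyte surface glycoprotein, had 96.7 to 159.2 in the Steap4f/f libraries, against 2087.7 and 132.8 in Steap4AKO, and Myh11, the smooth muscle myosin, 757.5 to 1357.1 against 15119.8 and 1381.5. All 10 were highest in Steap4AKO replicate 2, and without that library 0 of the 10 were among the 10 nearest to Trem2 (ranks 28 to 3619), so that the list rests on it.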

How the data were processed

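RNA of inguinal fat was sequenced in 4 Steap4f/f and 2 Steap4AKO libraries. The deposited table holds a signal, counts that the authors scaled per library with DESeq2, per its name. The authors' tools, per the submitters' processing notes, include DESeq2 (1.12.4), R (4.2.0), RSEM (1.3.3) and STAR (2.7.0e), with the mouse builds mm10 and GRCm38 and no role stated; RSEM can split reads between similar genes. The sources used here do not give strandedness, and exons of Spp1, Cd9 and Mmp12 share 309, 218 and 157 bases with another annotated gene.

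Low values were not whole reads (49.3 to 58.3% within 0.1 of a whole read), so no count test was run, and depth was estimated from the value of 1 read (0.71 to 1.18). Symbols and positions are from GENCODE M21 on GRCm38. Genotypes were compared over all genes with limma 3.58.1 in R 4.3.3 on log2(value + 1) with a variance trend, two-sided, for 15006 genes with a mean of at least 10, with Benjamini-Hochberg adjustment and a threshold of 0.05. Log2 differences, Steap4AKO minus Steap4f/f, understate changes of low genes; folds are ratios of deposited values, and non-overlap and single-library counts are descriptions. The script was tested on simulated data.

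Members and lists were chosen with earlier results of these data known. Named are the members, Steap4, the 3 genes with the largest change (mean at least 50) and any past the threshold in each pathway list, the first 3 of each marker list, and the 10 genes nearest to Trem2; Tyrobp and Apoe were added after their values were seen, and not every gene the rule names is printed. Alternatives were other pseudocounts, filters, scalings, weights and variance priors, a macrophage covariate and each library left out.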

Additional observations from a re-analysis of the deposited data

Results flagged for a closer look

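In 7 of 80 genes looked at, 1 of the 4 Steap4f/f libraries lay far from the other 3 (Dixon's test). For normally distributed values chance gives this for about 1 in 20 genes, a rate that does not hold for genes near 0. None of the 7 is a member. In Steap4f/f replicate 1 Steap4 was at 17017.9 (next 9417.2), Cd14 at 634.5 (next 187.1) and Cd44 at 624.8 (next 350.7). In replicate 5 Ccr2 was at 443.3 (next 311.5) and Epcam at 2.4, with 0 in the others. When the other 3 values are all 0 the test flags any value above 0, so the zeros fixed the flag of Epcam. In replicate 6 the mesothelial genes Upk3b and Wt1 were at 167.1 and 13.8, with at most 2.2 and 1.0 in the others.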

How the results depend on the processing

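No member passed the threshold under any of the 11 settings that kept all 6 libraries, and 97 of 99 member values kept their direction there; Cd63 was at 0.08 with an equal total per library, which moved the median of all genes to 0.21, and Spp1 at -0.59 with the macrophage level as a covariate. With that covariate the median of the members was 0.28 and Trem2 was at 0.28. Leaving out 1 library each time gave 0 to 6 members past the threshold and a median from -0.12 to 2.43. The ranges were -0.33 to 3.78 for Trem2, -0.10 to 3.15 for Gpnmb, -0.99 to 1.27 for Spp1, -0.33 to 0.13 for Cd63, -0.12 to 2.43 for Cd68 and -0.15 to 1.91 for Lgals3, with the lowest value without Steap4AKO replicate 2 and the highest without replicate 3. In the pathway lists 0 genes passed with all libraries and 0 to 19 with 1 left out.

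The 71 genes past the threshold over all genes became 1 with a pseudocount of 0.5, a mean of at least 50, a robust variance prior or the macrophage covariate, 13 with no variance trend, 119 with array weights, and 1 to 821 with 1 library left out (238 without Steap4f/f replicate 1, 821 without Steap4AKO replicate 3 and 1 without any other). The cause was not tested. No count model was run, since whole reads were not recovered. No paired analysis was possible because the groups share only replicate number 2. With 2 Steap4AKO libraries that differ by 17.4-fold for Trem2, the design gives a wide error. The nearest genes to Trem2 without Steap4AKO replicate 2 were computed as an alternative chosen after seeing the data.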

Other observations

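Other cell lists were described beside the members. The 4 endothelial genes summed to 15949.4 to 17684.2 in Steap4f/f, 18303.9 in Steap4AKO replicate 2 and 20738.6 in replicate 3, above every Steap4f/f library in both. The 6 stromal progenitor genes summed to 47265.6 to 58977.6, 35196.7 and 38393, below every Steap4f/f library in both. Col1a1 and Col1a2 made up most of that sum, and Dpp4 went the other way in replicate 2, with 540.0 against 260.2 to 386.2 in Steap4f/f. By gene, both Steap4AKO libraries were above every Steap4f/f library for 2 of 4 endothelial genes, against 14.1% of all genes. They were below every one for 4 of 6 stromal genes, against 14.4%. The 5 measured T and NK cell genes summed to 47.3 to 136.3, 220.3 and 135.1. No gene of these lists was past the adjusted p threshold in limma (0 genes). An unadjusted p under 0.05 was found for 1 of 4, 3 of 6 and 0 of 5 genes, against 18.1% of all genes.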
